A study of Mus musculus with 2 samples.

Results

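The regions described here are 458 of the 2964 RNA-binding clusters listed for ALKBH5 in mouse testis: they were chosen by their length of 21 to 30 bases and by a measured value, fewer than 1000 reads in the ALKBH5 library. A cluster is a stretch of 1 strand covered by reads, so its length is the width of the covered stretch and not the length of a read. The clusters came from PAR-CLIP, a method in which cells take up 4-thiouridine into new RNA and light, here of 365 nm, then links the labelled RNA to the protein on it. Testis lysates came from 10-week-old mice of the outbred ICR strain that had been injected with 4-thiouridine in DMSO. One library was made from RNA recovered with a rabbit polyclonal antibody to ALKBH5 (the IP) and the other from RNA recovered with nonspecific IgG, and both were digested with RNase T1 and prepared with a small RNA kit. The labels name no genotype and do not say how many mice were used or whether they were pooled. Each group thus had 1 library, so values lack replicate error and the conditions could not be tested against each other.

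ALKBH5 is a nuclear enzyme that removes the methyl group of N6-methyladenosine from RNA, and it is abundant in testis. RNA of about the width of these clusters can come from several sources in this tissue. Developing germ cells hold microRNAs, which guide Argonaute proteins to messenger RNAs, and piRNAs, which guide PIWI proteins and silence transposons. Short pieces of transfer RNA, of small nucleolar RNA and of messenger RNA cut by RNase T1, which cleaves after guanosine, can have the same width. Positions follow the build NCBIM37, counted from 1. The clusters carry no names of genes or small RNAs, no place in an exon, intron or UTR and no sequence here, since neither a genome nor an annotation of that build was used. For the same reason the labelled tissue was not checked against marker genes.

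The library totals, recovered from the z-scores in the authors' deposited table, came to 31668845 IP reads and 31031345 IgG reads. The 458 clusters held 107957 IP reads and 61999 IgG reads, or 0.341% and 0.200% of those totals. The ratio of these sums, scaled to the library totals, was 1.71, with an exact binomial (Clopper-Pearson) 95% interval of 1.69 to 1.72. It was 0.955, on the other side of 1, when the median ratio of all listed clusters was set to 1 in place of scaling to the totals. That setting places as many listed clusters with IgG reads below 1 as above it by construction. Intervals of ratios reflect counting error of reads alone. Intervals of shares and of medians are taken over clusters as if these were independent draws, and hold no error between libraries. Reads were amplified without molecular identifiers and may be copies of one molecule. The interval of a ratio sets 1 library against another rather than 1 condition against another. The IP count was part of the rule that chose the clusters, and the table lists only clusters under a p of 0.001. Ratios are therefore given as a description of the chosen clusters.

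The 458 clusters ranged from thinly covered ones, 133 of them with under 50 IP reads, to well-covered ones with reads in both libraries. The scaled ratio lay under 2 in 193 of the 368 clusters for which IgG reads were listed. IP counts ran from 11 to 990, with a median of 126.5 and quartiles of 36.25 and 356.25. IgG counts ran from 0 to 851, with a median of 49.5 and quartiles of 6 and 197.75. Over those 368 clusters the ratio was 1.94 at the median, with quartiles of 1.53 and 3.17. Single clusters ranged from 1.09 to 24.8. In 367 of these clusters the interval of the ratio lay above 1, and in 84 (22.8%) it lay above 2. Over all listed clusters with IgG reads, 98.4% had an interval above 1 and 12.6% one above 2.

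After 1 read was added to every count, 262 of the 458 clusters reached a ratio of 2, which was 57.2% against 57% of all listed clusters. A ratio of 4 was reached by 146 clusters, or 31.9%, against 34.6% of all listed clusters. Among the 368 clusters with IgG reads, 172 (46.7%) reached a ratio of 2, against 39.8% of all listed clusters with IgG reads. A ratio of 4 was reached by 56 (15.2%), against 8.41%. Nothing is read from these shares, because the limit on IP reads leaves out the clusters with most reads, whose ratios were low. The 166 clusters of the same lengths with 1000 or more IP reads had a median ratio of 1.32, and IgG reads were listed for all of them.

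**Figure D1:**
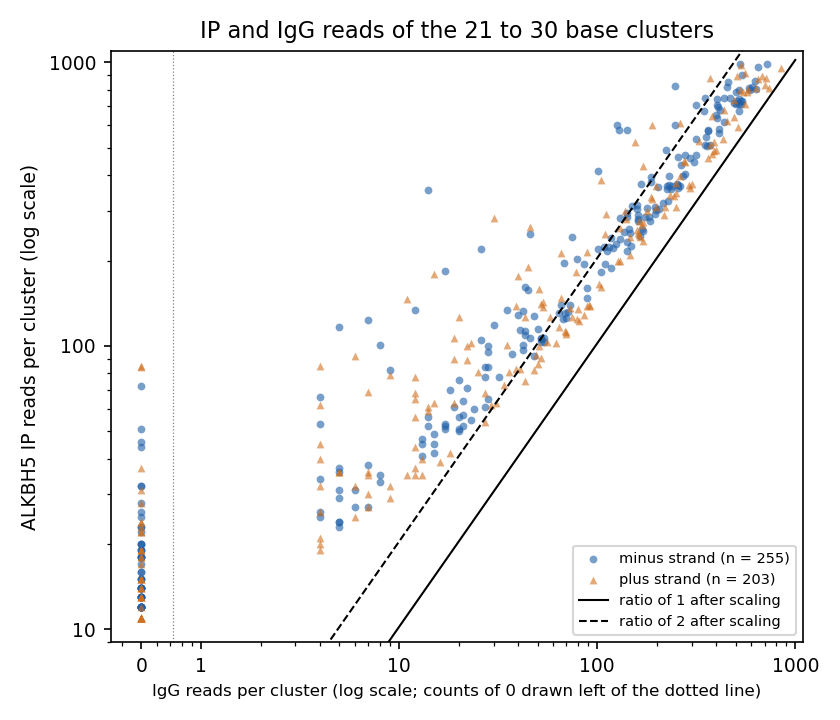
IP reads against IgG reads of the 458 clusters, 1 point per cluster, on log scales, with clusters at an IgG count of 0 drawn left of the dotted line. Most points with many reads lie between the lines for a ratio of 1 and a ratio of 2, the highest ratios lie at low IgG counts, and no point lies at 1 to 3 IgG reads.

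The number of reads set how high a ratio a cluster needed to be listed. From the recovered totals, a minus cluster with 50 IP reads passed the p threshold with at most 20 IgG reads, a ratio of 2.45, and a plus cluster with at most 24, a ratio of 2.04. With 200 IP reads the limits were 129 IgG reads on the minus strand, a ratio of 1.52, and 150 on the plus strand, a ratio of 1.31. With 999 IP reads ratios of 1.22 and 1.06 were enough. Median ratios of the clusters fell with the IP count, as this limit did. At 20 to under 50 IP reads the median was 4.46 over 46 clusters with IgG reads. At 50 to under 100 it was 2.99 over 59. These medians leave out the 21 and 4 clusters of the same ranges whose IgG count was listed as 0. Medians were 2.20 over the 76 clusters at 100 to under 200 and 1.61 over the 109 at 200 to under 500. For the 77 at 500 to under 1000 the median was 1.47. The lowest ratio that would have been listed had medians of 3.05, 1.87, 1.54, 1.35 and 1.24 in the same order of ranges. What part the limit had in the fall was not tested.

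Set against the lowest ratio that would have been listed at the same IP count and strand, the clusters with IgG reads were higher by a median factor of 1.26, with quartiles of 1.09 and 1.68. Of the 368 clusters, 96 lay within a factor of 1.1 of that lowest ratio. A factor of at least 2 was reached by 68 clusters and a factor of at least 4 by 22. These 68 are the clusters whose ratio was least fixed by the threshold of the list. The same factors were not computed for the other listed clusters. Whether such counts are usual for the list was therefore not tested.

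An IgG count of 0 was listed for 90 of the 458 clusters (19.7%, exact binomial 95% interval 16.1 to 23.6%), against 28.6% of all listed clusters. These 90 clusters were thinly covered in the IP too, with a median of 15 reads. Of the 90, 65 stayed under 20 IP reads and 4 had 50 or more. No cluster had an IgG count of 1, 2 or 3, neither among the 458 nor among the 2964. The lowest count above 0 was 4, which 14 of the 458 clusters had, and 29 had 4 to 6. At their IP count and strand, 69 of the 90 would still have passed the p threshold with 1 IgG read and 38 with 3. An IgG count listed as 0 is therefore not taken here as an absence of reads, and what produced the gap in the counts was not tested. Folds of these clusters are given here as lower bounds against 3 IgG reads per cluster. They assume that a listed 0 stands for at most 3 reads, and they hold no counting error, with which they would be lower. The bounds ran from at least 3.59-fold to at least 27.8-fold, with a median of 4.90.

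The 10 highest ratios, ranked after adding 1 read to every count, all belonged to clusters whose IgG count was listed as 0, with IP counts below 100. This order depends on taking a listed 0 as 0 before the read was added. Against 3 IgG reads their lower bounds run down to 10.1-fold, while clusters with IgG reads had ratios of up to 24.8. First in the ranking came chr19:37548531-37548555, a plus cluster of 25 bases with 85 IP reads, at least 27.8-fold higher in the IP. A plus cluster of 21 bases, chr6:64349612-64349632, followed with 84 IP reads (at least 27.4-fold). The minus cluster chr16:32278124-32278145, 22 bases long, had 72 IP reads (at least 23.5-fold). The fourth, chr2:98507029-98507057 on the minus strand, was 29 bases long, had 51 IP reads and lay in a dense stretch of clusters described further on.

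The next 6 had 31 to 46 IP reads. On chromosome 1 these were the minus cluster chr1:68577419-68577440, with 46 reads (at least 15.0-fold), and the plus cluster chr1:109431879-109431905, with 37. The minus cluster chrX:129449301-129449321 had 44 reads (at least 14.4-fold). The minus clusters chr13:13538926-13538946 and chr2:24774940-24774963 had 32 reads each, and the plus cluster chr8:81032937-81032959 had 31 (at least 10.1-fold). These 10 clusters were spread over 8 chromosomes.

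High ratios at higher counts were rare and were named after their values were seen. With 1 read added to every count, 17.1% of the 76 clusters at 100 to under 200 IP reads reached a ratio of 4. Of the other listed clusters in that range, 9.81% did. The shares were 4.59% against 6.11% at 200 to under 500 reads and 2.60% against 2.59% at 500 to under 1000. Without the added read, 22 of the 262 clusters with 100 or more IP reads had a ratio of at least 4. These 22 lay on 16 chromosomes, 12 were minus and 10 plus clusters, and 16 of them were 21 to 24 bases long. All 22 had intervals above 2, but the rule that picked them by count and ratio largely fixed this. Nothing is therefore read from it. Another listed cluster lay within 20 kb on either strand for 2 of the 22. The highest ratio belonged to chr17:31711995-31712018, a minus cluster of 24 bases. It had 354 IP reads against 14 from IgG, which gave 24.8 (interval 14.6 to 45.8). That was 18.1 times the lowest ratio that would have been listed at this count.

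The next highest ratios rested on fewer reads and had wide intervals. The minus cluster chr14:74908190-74908212, of 23 bases, had 117 IP reads and 5 from IgG, for a ratio of 22.9 (9.55 to 71.9). In chr12:85490873-85490894, a minus cluster of 22 bases, 123 and 7 reads gave 17.2 (8.11 to 43.7). Both intervals overlap with that of the chromosome 17 cluster, so these counts do not settle the order of the 3.

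Next in order was the plus cluster chr6:47231209-47231230, where 146 IP and 11 IgG reads gave 13.0 (7.06 to 26.6). In the minus cluster chr3:30993640-30993661, also of 22 bases, 101 and 8 reads gave 12.4 (6.04 to 29.4). For chr13:55932180-55932203, a plus cluster of 24 bases, 179 and 15 reads gave 11.7 (6.90 to 21.3). Ratios of 10.9 (6.06 to 21.7) and 10.6 (6.45 to 18.6) came from the minus clusters chr11:85662355-85662380 (134 and 12 reads) and chr17:86536093-86536113 (184 and 17 reads). All 5 of these clusters have intervals that overlap one another.

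The counts were firmer where IgG reads were more numerous. In chr18:52940680-52940700, a plus cluster of 21 bases, 282 IP and 30 IgG reads gave 9.21 (6.31 to 13.9). The minus cluster chr14:37385222-37385243 had 219 and 26 reads, or 8.25 (5.48 to 12.9). The 3 of the 22 clusters with the most IP reads were minus clusters with ratios near 4. Among these, chr10:19727595-19727615 had 601 and 126 reads (4.67, interval 3.85 to 5.71). On chromosome 1, chr1:152339328-152339348 had 578 and 141 reads (4.02, 3.34 to 4.86) and chr1:5160793-5160818 had 576 and 129 (4.38, 3.61 to 5.34). The intervals of these 3 overlap one another and lie below that of the chromosome 17 cluster with the highest ratio.

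The clusters closest to the limit of 1000 IP reads had ratios below 2 on both sides of it. Just inside it, chr3:58623588-58623614, of 27 bases, had 990 IP and 717 IgG reads (1.35, interval 1.23 to 1.49). The other, chr2:17652464-17652485, of 22 bases, had 988 and 524 (1.85, 1.66 to 2.06), and both were minus clusters. Just outside it, clusters with 1006 and 1011 IP reads had ratios of 1.30 and 1.80. By length, 118 clusters of 21 bases and 8 of 30 bases lay just inside the limits. Just outside, under the same read limit, were 123 of 20 bases and 14 of 31 bases.

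The 10 clusters with the most IP reads, 884 to 990 each, lay on chromosomes 2, 3, 5, 10, 12, 14, 15 and X. Chromosome 2 held 3 of the 10: besides the one just named, the plus clusters chr2:30093159-30093186 (983 and 530 reads, 1.82) and chr2:168849077-168849100 (895 and 676 reads, 1.30). The minus clusters chr12:49871108-49871130 and chrX:130988192-130988214 had 965 and 905 IP reads, with ratios of 1.47 and 1.64. For the plus clusters chr15:89354004-89354027 and chr14:33280268-33280288 the IP reads were 917 and 893, and the ratios 1.62 and 1.73. Of the 10, the plus cluster chr10:36373459-36373479 stood highest, as 884 and 370 reads gave 2.34 (2.07 to 2.65).

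The 8 lowest ratios lay between 1.09 and 1.21, all on the plus strand. Lowest was chr8:48373250-48373273, of 24 bases, with 812 IP and 733 IgG reads. Its interval of 0.981 to 1.20 was the one among the 368 that held 1. Next came chr5:98736495-98736516, also among the 10 with the most IP reads, where 956 and 851 reads gave 1.101 (1.003 to 1.21). In chr13:101306073-101306094 there were 590 and 512 reads (1.13, 1.001 to 1.27). The pair chr9:70028689-70028709 and chr9:21398084-21398105 had ratios of 1.15 and 1.20. Each of chr7:122327722-122327748, chr19:55700345-55700365 and chr11:113693678-113693698 had a ratio of 1.21.

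The authors' deposited table moves the log2 fold change by 1 constant per strand, 0.10 on the plus strand and -0.09 on the minus strand. A plus cluster could therefore be listed at a lower ratio than a minus cluster of the same IP count. The lowest minus ratio among the 458 clusters was 1.25, above all 8 of these.

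By strand, 255 of the 458 (55.7%, interval 51.0 to 60.3%) were minus clusters and 203 were plus clusters. Of the other 2506 listed clusters, 50.2% (48.2 to 52.2%) were on the minus strand. Clusters are not replicates of a condition and the thresholds differ by strand, so these shares are given without a test. Where IgG reads were listed, minus and plus clusters alike had a median ratio of 1.94 with the totals of both strands. With each strand's own totals the medians were 1.86 for minus and 2.13 for plus clusters. Of the 255 minus clusters 51 were at an IgG count listed as 0, and of the 203 plus clusters 39. Minus clusters had 63669 IP reads in all and plus clusters 44288, with ratios of the sums of 1.76 and 1.64.

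The number of clusters fell with length from 118 at 21 bases, through 94 at 22, 69 at 23 and 56 at 24 bases, to 26 at 25 bases. It was 39 at 26 bases, above both neighbouring lengths, and then 20, 13, 15 and 8 at 27, 28, 29 and 30 bases. The share on the minus strand was 58.5% (49.0 to 67.5%) at 21 bases and 64.9% (54.4 to 74.5%) at 22 bases. It was 53.6% at 23 bases, 28 of 56 clusters at 24 bases and 53.8% at 26 bases. At 30 bases 1 of 8 clusters was on the minus strand, with an interval of 0.316 to 52.7%. The thresholds of the list differ by strand and clusters are not replicates, so no difference between lengths is read from these shares.

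Clusters of 21 to 24 bases, about the width of microRNAs, numbered 337, and those of 25 to 30 bases, about the width of many piRNAs, numbered 121. The width does not name the RNA, and no cluster was assigned to either class. The shorter clusters had a median of 127 IP reads and the longer ones 107. Their median ratios with IgG reads were 1.91 (interval of the median 1.79 to 2.09) and 2.01 (1.71 to 2.52). An IgG count of 0 was listed for 19.9% and 19.0% of them, and 57.9% (52.4 to 63.2%) and 49.6% (40.4 to 58.8%) were on the minus strand. All of these intervals overlap. By single length the median ratio ran from 1.76 at 23 bases to 2.52 at 25 bases. At 21 bases it was 2.26 in 94 clusters with IgG reads, at a median of 109 IP reads over all 118 clusters, and at 22 bases 1.85 in 73, at a median of 132 over all 94. Read counts moved with length here, and their part in the difference was not tested.

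**Figure D2:**
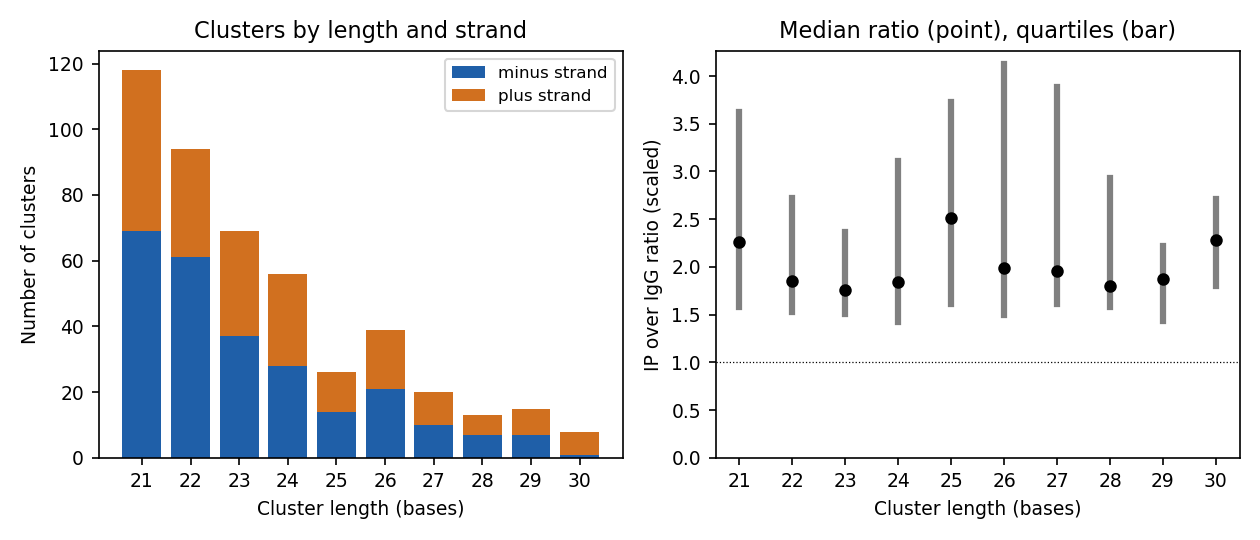
Left, the number of clusters of each length in bases, stacked by strand; right, the median scaled ratio of IP to IgG (point) and its quartiles (bar) over the clusters of each length with IgG reads. Counts fall from 118 at 21 bases to 8 at 30 bases with 39 at 26 bases, and the median ratios lie between 1.76 and 2.52.

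At matched IP counts, the clusters were set beside listed clusters of other lengths, without a test. In the range of 20 to under 50 IP reads the share at an IgG count of 0 was 31.3% (20.6 to 43.8%) of 67 clusters, 33.2% (27.2 to 39.6%) of 235 clusters of 14 to 20 bases and 45.3% (36.1 to 54.8%) of 117 clusters of 31 bases or longer. In the range of 100 to under 200 IP reads none of the 76 clusters had an IgG count of 0, which allows a share of up to 4.74% by the exact interval. In this range 15.8% (6.02 to 31.3%) of the 38 clusters of 31 bases or longer had one. So did 5 of the 176 clusters of 14 to 20 bases (2.84%, 0.929 to 6.50%), an interval that overlaps with the limit for the 76.

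Where IgG reads were listed, the median ratio was lower at each higher range of IP counts, except between the last 2 ranges of the longer clusters. At 20 to under 50 IP reads it was 4.46 in clusters of 21 to 30 bases, 3.43 in the shorter and 3.67 in the longer ones. At 50 to under 100 reads the medians were 2.99, 2.43 and 2.45 in the same order, and at 100 to under 200 reads they were 2.20, 1.94 and 1.77. At 200 to under 500 reads they were 1.61, 1.62 and 1.49, and at 500 to under 1000 reads 1.47, 1.48 and 1.53. The intervals of the medians over clusters overlapped between clusters of 21 to 30 bases and each other set in all 5 ranges, as in 1.87 to 2.64 against 1.87 to 2.04 and 1.67 to 2.01 at 100 to under 200 reads.

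The clusters lay on every autosome and on chromosome X. Counts were highest on chromosome 9 with 38 clusters, chromosome 11 with 37, chromosome 1 with 35, chromosome 2 with 34 and chromosome 4 with 33. Chromosome 19 had the fewest of the autosomes, 11. As a share of all listed clusters of the same chromosome, chromosome 11 stood highest with 23.9% of 155, and among the autosomes and X chromosome 3 stood lowest with 10.6% of 142. None of the 31 listed clusters of chromosome Y and none of the 19 of the mitochondrial genome were 21 to 30 bases long with under 1000 IP reads. On chromosome X, 12 of 15 clusters were on the minus strand, on chromosome 16 12 of 16, and on chromosome 13 10 of 13. On chromosome 17 11 of 17 were on the plus strand, and on chromosome 1 21 of 35.

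By chromosome, median ratios where IgG reads were listed ran from 1.61 on chromosome 5 (25 clusters) to 3.10 on chromosome 17 (11 clusters) and 3.05 on chromosome 13 (10 clusters). Chromosome 17 also had 6 of its 17 clusters at an IgG count of 0, and its clusters held 3114 IP reads in all. The most IP reads were on chromosome 4, with 9569 over 33 clusters, where the median ratio was 1.70. The IP reads per chromosome are sums over different numbers of clusters and give no density, since chromosome lengths were not used here.

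**Figure D3:**
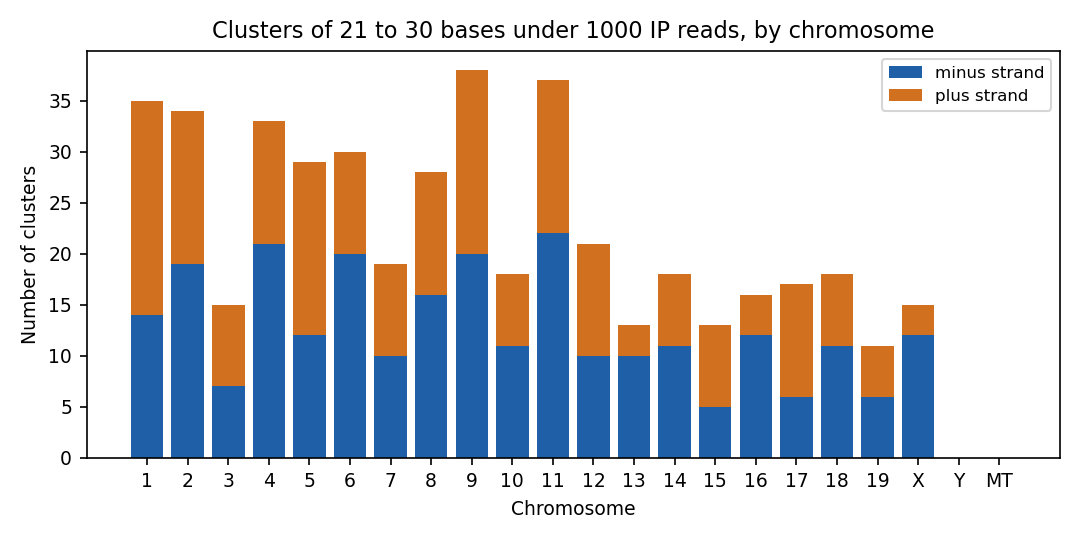
Number of the 458 clusters on each chromosome, stacked by strand, with Y and the mitochondrial genome (MT) at 0. Chromosome 9 has the most, 38, followed by chromosome 11 with 37.

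Most clusters stood alone. The median distance to the nearest listed cluster of any length was 477 kb on the same strand and 559 kb on the opposite strand. Within 20 kb, 37 of the 458 clusters (8.08%) had another listed cluster on the same strand and 17 (3.71%) one on the opposite strand. The same shares were 4.19% and 2.82% of the 1456 clusters of 14 to 20 bases under 1000 IP reads. They were 51.3% and 30.7% of the 544 clusters of 31 bases or longer under 1000 IP reads. Dense loci, with at least 5 listed clusters at gaps of at most 20 kb, held 14 of the 458 clusters (3.06%), 1.17% of the 1456 shorter and 36.9% of the 544 longer ones, against 9.95% of all listed clusters. Of the 21 dense loci, 8 had such a cluster.

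**Figure D4:**
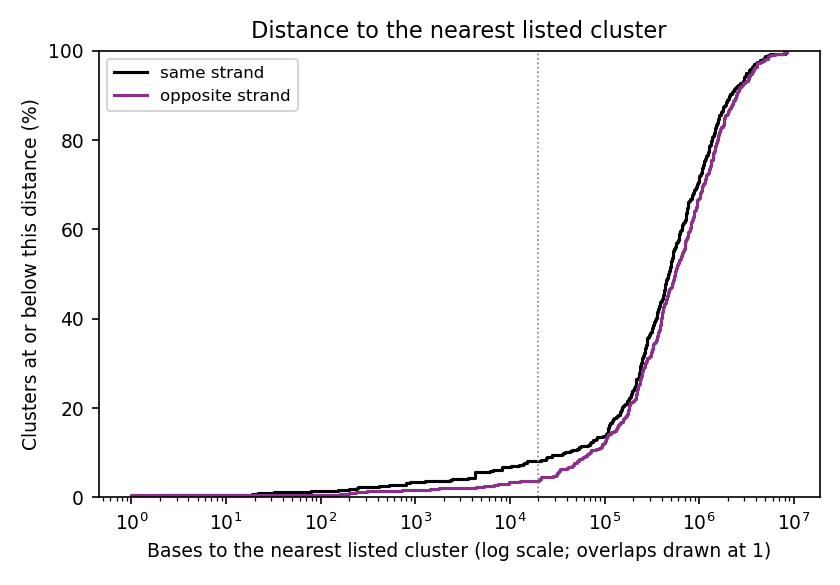
Share of the 458 clusters (y axis, percent) whose nearest listed cluster lies at or below a given distance in bases (x axis, log scale), for the same strand and the opposite strand, with 20 kb as a dotted line. At 20 kb the curves stand at 8.08% and 3.71%, and both rise steeply only beyond 100 kb.

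When the 458 clusters were joined with one another, at gaps of at most 20 kb on the same strand, 12 of them fell into 4 groups and 446 stood alone. All 4 groups were on the minus strand. The largest, chr6:47614041-47635681, had 6 clusters, 4 of them 22 bases long and the others 24 and 25 bases. Their starts were 4308 to 4338 bases apart. In the order of their starts they had 729, 716, 733, 712, 734 and 676 IP reads, and 506, 503, 533, 523, 536 and 522 IgG reads.

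Counts of the array on chromosome 6 were nearly equal from cluster to cluster. IP reads were 717 ± 21.9 (SD over 6 clusters) and IgG reads 521 ± 13.6, where counting error alone would give SDs of 26.8 and 22.8. The spread over these 6 clusters was thus no larger than counting error in either library. Over all 8 clusters of the array, with the pair named below, the SDs were 24.3 and 19.5. Counting error alone would give 26.7 and 22.9 there. Single ratios ran from 1.27 (1.13 to 1.43) to 1.41 (1.26 to 1.58), all with overlapping intervals, and the ratio of the sums was 1.35 (1.29 to 1.41). The sum's interval counts the reads as separate molecules of separate places, and whether reads were assigned to more than 1 of these clusters was not checked. Another pair of minus clusters continued the array to the left at the same spacing, at 47605380 and 47609701, with 673 and 722 IP reads. They were 18 and 19 bases long and so fell outside the length limits. Of the 14 clusters in dense loci, 6 were those of this array.

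**Figure D5:**
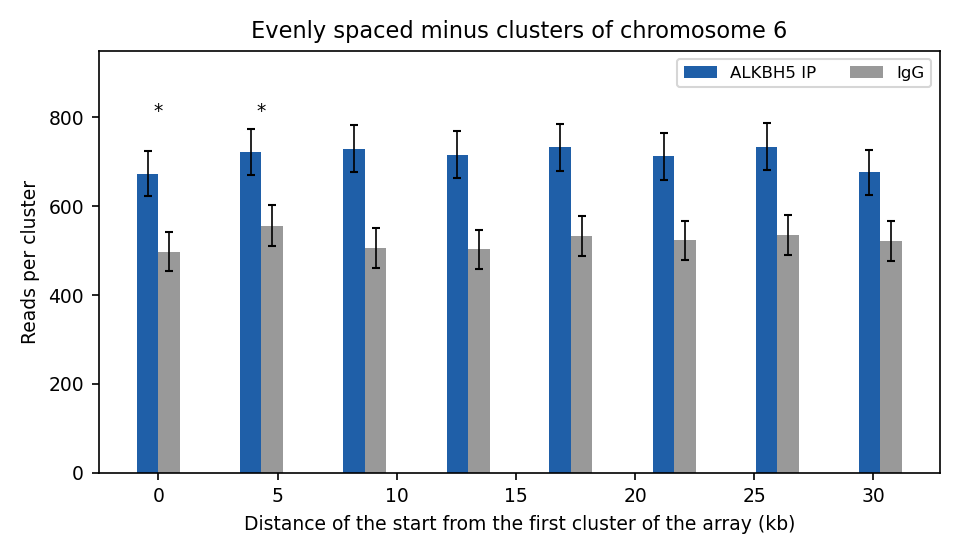
IP and IgG reads (y axis) of the evenly spaced minus clusters of chromosome 6 by the distance of their start from the first one (x axis, kb), with error bars of 1.96 square roots of the count, which show counting error. All bars of a library stand at nearly the same height, 673 to 734 for the IP and 498 to 556 for IgG; asterisks mark the 18- and 19-base clusters outside the length limits.

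The other 3 groups were pairs. The chromosome 9 pair were both 22 bases long: chr9:114061067-114061088 had 285 IP and 182 IgG reads, and chr9:114076330-114076351 had 254 and 171. Their ratios were 1.53 and 1.46. In the chromosome 18 pair, chr18:35931210-35931235 (26 bases) had 23 IP reads and an IgG count listed as 0. Its neighbour chr18:35932034-35932054 (21 bases) had 53 IP and 4 IgG reads, for a ratio of 13.0 (4.78 to 49.4).

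The pair on chromosome 7 lay within 175 bases. Its first cluster, chr7:104698175-104698196 (22 bases), had 446 IP and 309 IgG reads, for a ratio of 1.41 (1.22 to 1.64). The second, chr7:104698321-104698349 (29 bases), had 747 and 350 reads, for a ratio of 2.09 (1.84 to 2.38). Between them lay a 26-base cluster over the read limit, chr7:104698276-104698301, where 2802 and 1498 reads gave 1.83 (1.72 to 1.95). The interval of the first lies below those of the second and of the cluster between them. These close neighbours thus differed in ratio by more than counting error if each read is a separate molecule, which was not checked.

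Few clusters had a close neighbour. Within 1 kb, 16 had another listed cluster on the same strand and 8 one on the opposite strand. On the same strand, 7 had one within 100 bases. One of the 7 was the plus cluster chr17:23013282-23013308, of 27 bases, with 69 IP and 7 IgG reads. It was separated by 9 bases from a 64-base cluster with 257 and 190 reads, whose ratio was 1.33. Another was chr11:107656169-107656194, of 26 bases on the plus strand, with 247 and 163 reads. It followed a 19-base cluster with 11 IP reads at a gap of 32 bases.

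A listed cluster on the opposite strand overlapped 3 of the 458 clusters, and all 3 were in dense loci with their IgG count listed as 0. Of these, 2 were in chr2:98502390-98507460, a dense locus of 25 clusters: the 29-base minus cluster with 51 IP reads named above, and chr2:98506905-98506929, a plus cluster of 25 bases with 23 IP reads. The third was chr9:35113033-35113053, a minus cluster of 21 bases with 26 IP reads, in chr9:35112863-35113169, a dense locus of 5 clusters. It lay inside the span of a plus cluster with 102 IP reads.

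The remaining 5 clusters in dense loci had 14 to 36 IP reads. They included the minus clusters chr4:93983857-93983882, of 26 bases with 36 IP and 5 IgG reads, and chr17:27455254-27455274, of 21 bases with 14 IP reads and an IgG count listed as 0. Outside dense loci, the clusters with IgG reads had a median ratio of 1.96, and 19.1% of all clusters there were at an IgG count listed as 0.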

How the data were processed

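The authors deposited 1 table with raw read counts of the IP and IgG libraries per cluster. Reads were aligned with BWA 0.5.8 to NCBIM37, per the submitters' processing notes. The calling of clusters, the placing of reads with several matches and the kind of test are not given in those sources or the labels. The deposited log2 fold change uses 0.5 in place of a count of 0, and a scaled log2 column adds a constant per strand. The authors' test, run on 1 library per group, gave the deposited z-score (a score), p-value and q-value of each cluster. Library totals were recovered by fitting a binomial log-ratio model per strand to the deposited z-scores, with a largest difference of 4.1e-08. Ratios are IP over IgG counts scaled to these totals over both strands. The lowest listed ratio was computed from the same model at the threshold of 0.001 that the table's header names. No new p-value was computed.

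A rule named the clusters with the 10 highest ratios (pseudocount 1), the 8 lowest ratios and the 10 highest IP counts, and all clusters in groups of 4 or more. Other clusters were named after their values were seen. The clusters, rules and alternatives were chosen with earlier results of these data known. The calculations were tested on simulated data. Tools were Python 3.11.15 with SciPy 1.17.1, pandas 2.3.3, NumPy 2.4.6 and, for figures, Matplotlib 3.10.9.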

Additional observations from a re-analysis of the deposited data

How the results depend on the processing

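No paired analysis was possible because the IP and IgG are single libraries, and leaving out a library was not possible either. The 262 clusters that reached a ratio of 2 became 190 to 270 with other pseudocounts, totals of each strand, raw counts, IgG counts of 0 set to 3, 21 to 24 bases, under 500 IP reads, and without groups or dense loci. It was 166 with the median ratio of all listed clusters set to 1, 139 with at least 50 reads together, 172 without clusters at IgG 0 and 146 at a ratio of at least 4; the last 3 test fewer clusters or use a stricter ratio. The median ratio of 1.94 became 1.09 with the median scaling, 2.21 under 500 IP reads and 2.39 with clusters at IgG 0 ranked highest. The summed ratio became 1.73 with totals of each strand and 1.95 under 500 IP reads. Clusters at IgG 0 numbered 4 with at least 50 reads, since such clusters have few reads, and 19 clusters were in groups at gaps of up to 100 kb.

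The median scaling divides every ratio by 1.79 (0.84 on the log2 scale), and turned the summed ratio to 0.955 and 20 of 50 named clusters with IgG reads below 1. It places as many listed clusters with IgG reads below 1 as above it by construction. A value below 1 under the median scaling thus means only a ratio under the median of the list. With scaling to the totals, 98.4% of the listed clusters with IgG reads had an interval above 1. The p threshold of the list largely fixed that share, so it does not bear on the choice of scaling. The other scalings turned none of the 50. On chromosome 6 the array had 0.790, 0.781, 0.754, 0.747, 0.751 and 0.710. Clusters with many reads had 0.757 (chromosome 3), 0.821 (12), 0.905 (15), 0.918 (X), 0.726 (2) and 0.968 (14). Those with the lowest ratios had 0.616 (5), 0.632 (13), 0.644 and 0.671 (9), 0.676 (7), 0.676 (19) and 0.678 (11), and chromosome 8, whose interval had held 1, had 0.608. Dense loci and ranking IgG 0 highest were added after the values were seen. Counts limit single clusters: with 4 IgG reads a ratio of 13.0 had an interval of 4.78 to 49.4.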
